A study of Mus musculus with 4 samples.

Results

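The matrix metalloproteinases (Mmp genes), their tissue inhibitors (Timp genes) and the ADAMTS proteases (Adamts genes) were examined in cultured mouse vascular smooth muscle cells given an siRNA against the circular RNA circEsyt2. Members were all rows whose gene symbol is Mmp, Timp or Adamts followed directly by a number, with the ADAMTS-like genes left out. The rule found 45 of the 22488 genes listed, comprising 22 MMP genes, 4 TIMP genes and 19 ADAMTS genes. The cells are labelled as C57BL/6 smooth muscle cells at passages 4 to 10, transfected for 48 hours. Both groups received an siRNA, either scramble (2 libraries) or directed at circEsyt2 (2 libraries), and untransfected cells were not analysed here. No label says that the 2 libraries of a group derive from separate cultures, and p-values then reflect only how these libraries spread, possibly for technical reasons. The comparison asks how expression differs between the 2 siRNAs. In these bulk libraries fewer cells of a type and less RNA per cell cannot be told apart.

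MMPs are zinc-dependent endopeptidases that are made as inactive proenzymes and together cleave most proteins of the extracellular matrix. TIMPs bind the active site of MMPs and block it, and some of them also inhibit ADAM and ADAMTS proteases. ADAMTS enzymes are secreted zinc proteases with thrombospondin repeats, known for cleaving proteoglycans such as versican and aggrecan and for trimming procollagens. In the vessel wall these families are known for remodelling matrix when smooth muscle cells migrate, after injury and in atherosclerosis and aneurysm.

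Levels are in FPKM, as deposited by the authors: fragment numbers divided by gene length and by the library's total. The total count behind each library, recovered from the digits of the FPKM values, was 2516428 and 4116791 in scramble replicates 1 and 2 and 3765056 and 3127224 in circEsyt2 siRNA replicates 1 and 2. For a 1 kb gene, 1 count equals 0.243 to 0.397 FPKM, depending on the library. Between 1466 and 1871 genes per library had a count of 2, against 423 to 714 genes with a count of 1, so counts cannot be taken as independent molecules. Of the smooth muscle markers Acta2, Myh11, Cnn1, Tagln, Smtn, Lmod1, Myocd and Des, all 8 were above 0 in every library. Their summed level was 1525 and 1543 FPKM with scramble siRNA and 919 and 873 FPKM with circEsyt2 siRNA. Most of it was Acta2, at 1421 and 1446 FPKM against 883 and 829 FPKM. For Myocd and Des the groups overlapped, and the other 6 were lower in both circEsyt2 siRNA libraries. The library of circEsyt2 siRNA replicate 1 stood apart in 8 hepatocyte markers, whose summed level was 3018 FPKM there, 92.4 FPKM in replicate 2, and 13.2 and 4.63 FPKM with scramble siRNA. The 8 fibroblast markers summed to 363 and 359 FPKM with scramble and 270 and 249 FPKM with circEsyt2 siRNA. Dcn, the largest of them, did not fall, at 184 and 190 FPKM against 205 and 192 FPKM. Pi16 overlapped between the groups, and the other 6 were lower in both circEsyt2 siRNA libraries. The 7 endothelial markers summed to 3.31 and 4.003 FPKM against 8.55 and 6.61 FPKM. Kdr, named after its values were seen, measured 1.23 and 1.26 FPKM with scramble and 4.32 and 4.002 FPKM with circEsyt2 siRNA. It was the largest part of the endothelial sum in both circEsyt2 siRNA libraries. Cdh5 measured 1.51 and 0.636 FPKM with scramble and 2.27 and 1.52 FPKM with circEsyt2 siRNA. For Pecam1, Tek, Vwf and Tie1 the groups overlapped, and Cldn5 was at 0 in every library. The part of these differences in the results below was not tested, and counts are given with and without circEsyt2 siRNA replicate 1.

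The promoters of 6 MMP genes are shown first. They were picked because they hold the motif searched for here. All 6 belong to 1 cluster on chromosome 9, which also holds the 2 MMP genes that rose. RefSeq promoter windows on GRCm38.p6 were found for 31 of the 45 members. The members without a window were not searched, and they include Mmp16, Mmp19 and Adamts6, which were called in the test below. The 250 bases before each start were searched for the AP-1 motif, TGACTCA or its reverse complement TGAGTCA, which the 2 strands of 1 site spell. Of the 31 genes 6 held a match (19.4%), against 1395 of all 27025 genes with a window (5.16%). All 6 lie in the chromosome 9 cluster: Mmp13, Mmp12, Mmp1b, Mmp3, Mmp10 and Mmp7. The 150 bases before the start are printed from 5′ to 3′ on the gene's strand, with the match in capitals. For Mmp12 and Mmp7, which have 2 listed starts each, the start with a match is shown.
Mmp13, chr9:7272364-7272513, plus strand: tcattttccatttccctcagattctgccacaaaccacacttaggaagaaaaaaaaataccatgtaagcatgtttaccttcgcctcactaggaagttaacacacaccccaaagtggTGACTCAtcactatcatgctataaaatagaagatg
Mmp12, chr9:7347224-7347373, plus strand: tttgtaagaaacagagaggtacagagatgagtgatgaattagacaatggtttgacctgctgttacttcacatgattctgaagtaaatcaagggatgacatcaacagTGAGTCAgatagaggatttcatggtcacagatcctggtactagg
Mmp1b, chr9:7388027-7388176, minus strand: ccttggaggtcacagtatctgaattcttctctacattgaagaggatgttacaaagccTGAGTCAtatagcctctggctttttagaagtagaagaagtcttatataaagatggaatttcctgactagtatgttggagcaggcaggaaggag
Mmp3, chr9:7445672-7445821, plus strand: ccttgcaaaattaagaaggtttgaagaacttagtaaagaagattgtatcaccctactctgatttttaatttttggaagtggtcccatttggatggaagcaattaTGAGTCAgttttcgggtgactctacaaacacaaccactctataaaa
Mmp10, chr9:7502192-7502341, plus strand: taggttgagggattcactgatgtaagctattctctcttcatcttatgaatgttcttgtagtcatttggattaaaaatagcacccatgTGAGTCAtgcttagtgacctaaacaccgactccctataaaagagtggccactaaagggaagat
Mmp7, chr9:7691940-7692089, plus strand: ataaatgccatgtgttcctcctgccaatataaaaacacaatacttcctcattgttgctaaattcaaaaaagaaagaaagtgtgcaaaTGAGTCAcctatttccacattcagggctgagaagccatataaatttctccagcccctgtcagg
With the base next to the start counted as 1, the first base of the match lay 35 bases before the start in Mmp13, 44 in Mmp12, 93 in Mmp1b, 46 in Mmp3, 63 in Mmp10 and 63 in Mmp7. A match is a description of the sequence and no measurement of binding.

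All 45 members were above 0 in at least 1 library, and 39 in every library. A mean of at least 1 FPKM over the 4 libraries, the level used for testing, was reached by 25 members: 12 MMP, 3 TIMP and 10 ADAMTS genes. A mean of at least 5 FPKM was reached by 17. Levels spanned a wide range, from Timp1 at 1111 ± 63.0 FPKM in scramble cells (SD, n = 2) to Mmp12 at 0.438 ± 0.00208 FPKM among the tested genes. The plot of FPKM by library shows every tested member.

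**Figure D1:**
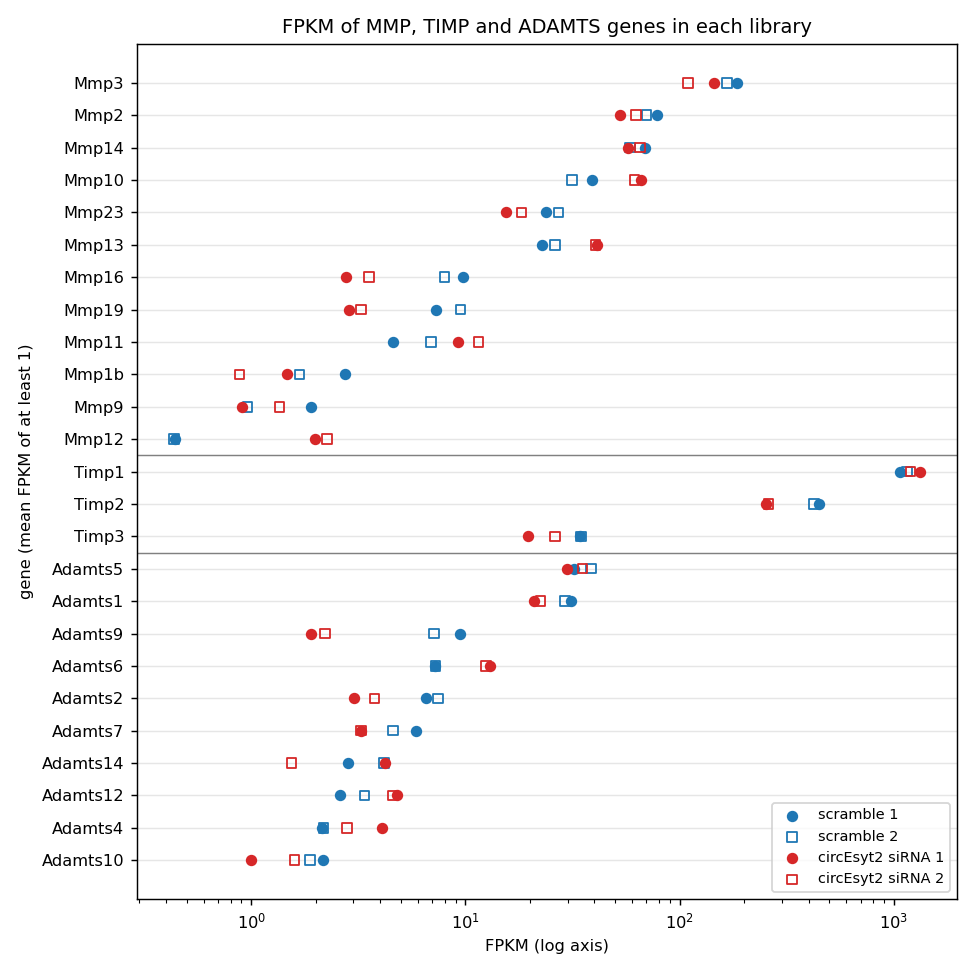
FPKM (log axis) of the 25 tested members in each of the 4 libraries; blue marks are scramble siRNA, red marks circEsyt2 siRNA, filled circles replicate 1 and open squares replicate 2, and horizontal lines part the MMP, TIMP and ADAMTS genes. Timp1 and Timp2 are the highest, and the red and blue marks are apart for genes such as Adamts9, Mmp16, Mmp10 and Timp2 and mixed for Mmp14 and Adamts5.

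The other 20 members, 10 MMP, 1 TIMP and 9 ADAMTS genes, had means from 0.0215 FPKM (Adamts8) to 0.987 FPKM (Mmp8) and rested on 1 to 68 counts over all 4 libraries. They were not tested in the comparison below. In order of mean level they were Mmp8, Mmp17, Mmp25, Adamts3, Adamts20, Mmp15, Adamts17, Mmp20, Mmp27, Adamts18, Mmp24, Mmp7, Adamts19, Mmp28, Timp4, Adamts13, Mmp21, Adamts15, Adamts16 and Adamts8. None of them exceeded 1.15 FPKM in any library. Just inside the level were Mmp12 and Mmp9, at means of 1.28 and 1.28 FPKM. Mmp12 reached it through the circEsyt2 siRNA libraries alone. Of the 20, 6 were at 0 in some library. Matrilysin (Mmp7), an MMP of epithelia, was at 0 in scramble replicate 1 and circEsyt2 siRNA replicate 2, where a count of 0 allows up to 1.12 and 0.898 FPKM (3 counts). Neutrophil collagenase (Mmp8) measured 1.15 and 1.002 FPKM with scramble and 0.876 and 0.923 FPKM with circEsyt2 siRNA, on 7 to 10 counts per library. The 6 neutrophil markers summed to 3.04 and 4.23 FPKM with scramble and 25.4 and 8.81 FPKM with circEsyt2 siRNA. S100a8 alone measured 2.29 and 3.50 FPKM with scramble and 22.2 and 8.29 FPKM with circEsyt2 siRNA. Mpo and Elane were at 0 in both scramble libraries. With circEsyt2 siRNA Mpo measured 0.310 and 0.187 FPKM and Elane 0.540 and 0.325 FPKM. S100a9 and Csf3r were at 0 in circEsyt2 siRNA replicate 2, and Ly6g was at 0 in both circEsyt2 siRNA libraries. Timp4, the fourth inhibitor, measured 0.539 and 0.165 FPKM with scramble siRNA, and 0 and 0.326 FPKM with circEsyt2 siRNA.

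Of the 25 tested members, 3 were higher and 5 lower in the circEsyt2 siRNA group (limma, Benjamini-Hochberg adjusted p under 0.05 over all genes tested). Stromelysin-2 (Mmp10), collagenase-3 (Mmp13) and Adamts6 rose, by 1.77- to 1.81-fold for Adamts6 and Mmp10 and 1.67-fold for Mmp13 by mean FPKM. Adamts9, Mmp16, Mmp19, Adamts2 and Timp2 fell, from 4.04-fold lower for Adamts9 to 1.71-fold lower for Timp2. Over all 11290 genes tested the same rule called 12.7%, with 5.47% higher and 7.26% lower. The groups did not overlap for 21 members, 8 of them higher and 13 lower, where 29.7% and 31.1% of all tested genes were so placed. Mmp12, counted among the 8 and in the median below, reached the level for testing through the circEsyt2 siRNA libraries alone. The median log2 fold change, on the log2(FPKM + 1) scale, was −0.36 over the 25 members and 0.0037 over all genes tested. That scale understates the change of low genes.

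**Figure D2:**
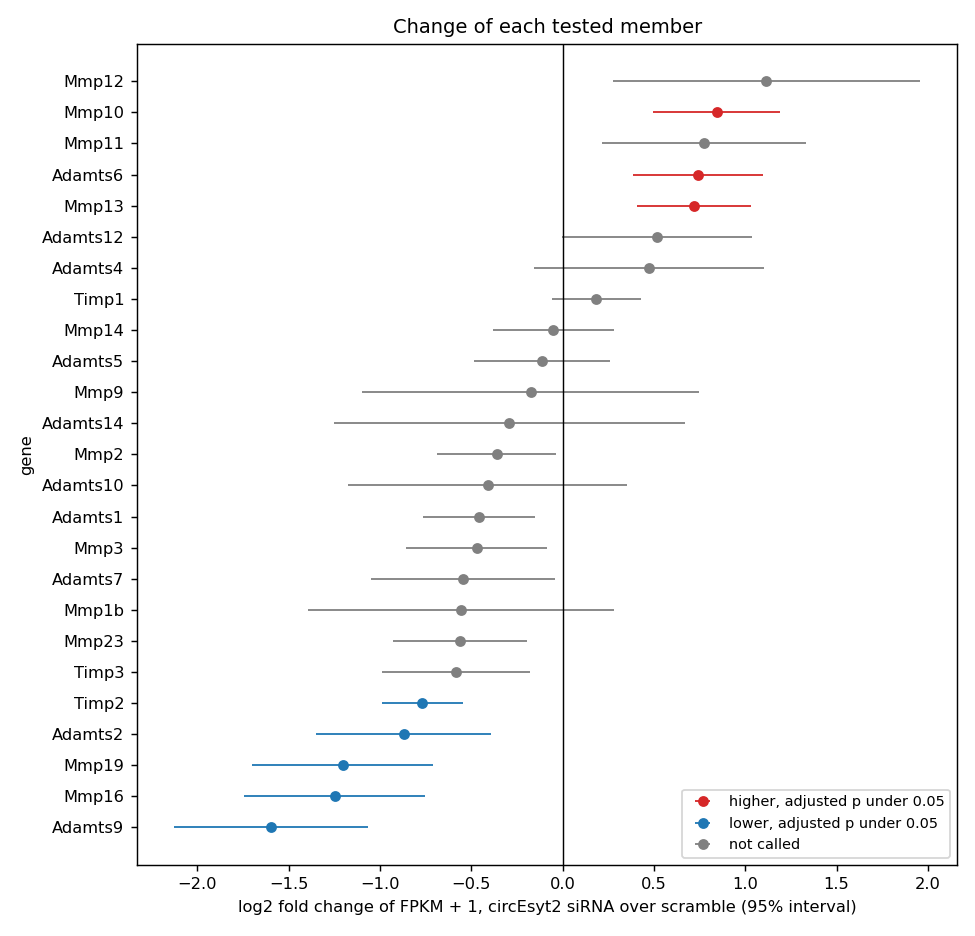
Log2 fold change on the log2(FPKM + 1) scale, circEsyt2 siRNA over scramble siRNA, for the 25 tested members, with 95% intervals from limma; red genes were higher and blue genes lower at an adjusted p under 0.05, grey genes did not pass. Adamts9 lies lowest, at −1.60, and Mmp12, which did not pass, lies highest, at 1.12.

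These calls rest on few libraries. Without scramble replicate 1, and likewise without scramble replicate 2, limma called 0 members and 0 of all genes, with 10 members at an unadjusted p under 0.05 in each case. With the hepatocyte-marker library (circEsyt2 siRNA replicate 1) left out, 4 of 26 tested members were lower (Adamts9, Mmp16, Timp2 and Mmp3) and 0 higher. Without circEsyt2 siRNA replicate 2 only Timp2 was called. With the replicate number as a block, and with no filter on low values, Adamts6 and Adamts2 lost their calls. With eBayes without a trend Timp2, Mmp10, Mmp13, Adamts6 and Adamts2 lost theirs.

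The collagenases and stromelysins, which cleave fibrillar collagens and a broad range of other matrix proteins, included the 2 MMP genes that rose. Mmp13 encodes collagenase-3, which cleaves fibrillar collagen. It measured 22.9 and 26.2 FPKM with scramble siRNA and 41.3 and 40.6 FPKM with circEsyt2 siRNA. Both treated libraries stood above both controls, and the log2 fold change was 0.72 (SE 0.13; limma adjusted p = 0.0218). Mmp10 encodes stromelysin-2, which cleaves proteoglycans and fibronectin and can activate other proenzymes. It measured 39.0 and 31.5 FPKM with scramble and 65.7 and 61.7 FPKM with circEsyt2 siRNA. The groups were again apart, with a log2 fold change of 0.84 (SE 0.14; limma adjusted p = 0.0192).

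Mmp3, stromelysin-1, a near relative of Mmp10 and the most abundant MMP transcript in every library, was not among the genes that rose. It measured 185 and 166 FPKM with scramble siRNA and 146 and 110 FPKM with circEsyt2 siRNA. Both treated libraries lay below both controls, with a log2 fold change of −0.47 (95% interval −0.86 to −0.08), and the difference did not pass the test (limma adjusted p = 0.108). It passed under quantile normalization (adjusted p = 0.0464) and without circEsyt2 siRNA replicate 1 (adjusted p = 0.0373). Mmp11, stromelysin-3, which is activated inside the cell by furin, measured 4.58 and 6.91 FPKM against 9.27 and 11.5 FPKM. The groups did not overlap, and the adjusted p was 0.0800 in limma. Mmp11 shares 155 bp of exon with Chchd10 on the opposite strand, and whether counting used strand is not given in the sources used here.

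Mmp1b, a rodent relative of interstitial collagenase, measured 2.74 and 1.68 FPKM with scramble and 1.47 and 0.883 FPKM with circEsyt2 siRNA, on 4 to 10 counts per library. Its difference did not pass the test (limma adjusted p = 0.326). Mmp12, macrophage elastase, measured 0.439 and 0.436 FPKM with scramble siRNA on 8 and 13 counts, and 1.98 and 2.25 FPKM with circEsyt2 siRNA on 54 and 51 counts. The 2 groups were far apart, 4.84-fold by mean FPKM, yet the adjusted p was 0.0885 in limma on the log2(FPKM + 1) scale. Since Mmp12 entered the test through the group where it is high, no test of it is used as support. The summed level of the 8 macrophage markers was 13.3 and 15.6 FPKM with scramble and 40.5 and 9.13 FPKM with circEsyt2 siRNA. Among them Adgre1 measured 0 and 0.150 FPKM with scramble and 1.89 and 0.593 FPKM with circEsyt2 siRNA, Cd68 0.632 and 0.966 against 3.59 and 1.53 FPKM, and Lyz2 1.21 and 0.923 against 21.4 and 0.972 FPKM. Itgam was at 0 in scramble replicate 1 and in both circEsyt2 siRNA libraries. Csf1r measured 1.87 and 3.48 FPKM with scramble and 1.74 and 0.262 FPKM with circEsyt2 siRNA. The values of Cd14 were 8.85 and 8.50 against 10.1 and 4.48 FPKM. Those of Ptprc were 0.174 and 0.398 against 0.653 and 0.244 FPKM, and of Mrc1 0.561 and 1.03 against 1.08 and 1.05 FPKM. The part of macrophages, if any were present, in the Mmp12 values was not tested. Mmp12 and Mmp1b overlap by 157 bp of exon on opposite strands, so fragments there cannot be assigned to 1 of them without strand.

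The 6 genes with a printed promoter belong to a cluster of 9 members on chromosome 9 (GRCm38, 7272514 to 7699585), which spans 427 kb in the order Mmp13, Mmp12, Mmp1b, Mmp3, Mmp10, Mmp8, Mmp27, Mmp20 and Mmp7. Of the 5 tested genes of the cluster, 2 rose, Mmp13 and Mmp10, which lie at opposite ends of the tested stretch. All 5 tested genes carry the AP-1 letters in a window (Mmp12 at 1 of its 2 starts), among them Mmp12, Mmp1b and Mmp3, which were not called. Whether the letters bear on the changes was not tested. The share of Mmp3 in the summed FPKM of Mmp3, Mmp10, Mmp12 and Mmp13 was 74.8% and 74.1% with scramble and 57.2% and 51.2% with circEsyt2 siRNA. That of Mmp10 was 15.7% and 14.0% against 25.8% and 28.8%. The sum itself was 248 and 224 FPKM with scramble and 255 and 214 FPKM with circEsyt2 siRNA. The groups thus overlapped in the sum while the shares were apart. These shares restate the values given gene by gene. The sum leaves out the tested cluster gene Mmp1b, which measured 0.883 to 2.74 FPKM.

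**Figure D3:**
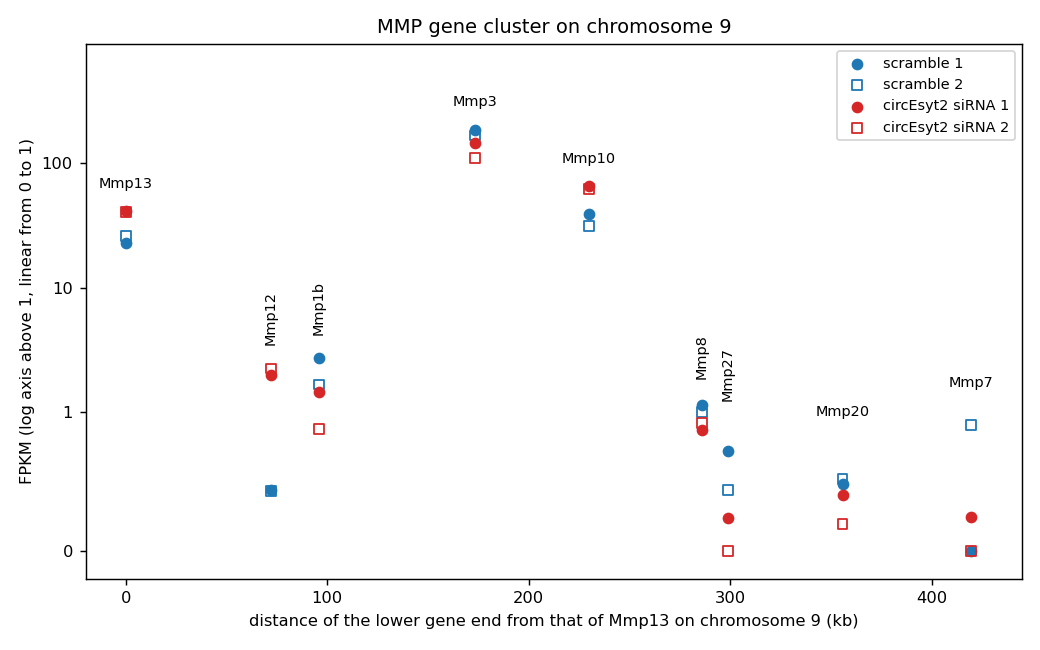
FPKM in each library (axis logarithmic above 1 and linear from 0 to 1) of the 9 MMP genes of the chromosome 9 cluster, placed by the distance of their lower coordinate from that of Mmp13 in kb; blue is scramble siRNA, red circEsyt2 siRNA, circles replicate 1 and squares replicate 2. Red marks lie above blue ones for Mmp13, Mmp12 and Mmp10 and below them for Mmp3, Mmp1b, Mmp8, Mmp27 and Mmp20, while Mmp7 overlaps.

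The gelatinases digest denatured collagen and basement membrane collagen. Mmp2, gelatinase A, which smooth muscle cells are known to make, measured 78.6 and 70.0 FPKM with scramble and 52.9 and 62.6 FPKM with circEsyt2 siRNA. The groups did not overlap and the log2 fold change was −0.36 (95% interval −0.69 to −0.03), without passing the test (limma adjusted p = 0.134). Mmp9, gelatinase B, known from leukocytes and stimulated cells, was low at 1.91 and 0.961 FPKM against 0.901 and 1.36 FPKM, and the groups overlapped.

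The membrane-type MMPs are anchored at the cell surface. Mmp14, the main cell surface activator of proMMP2, measured 68.7 and 58.5 FPKM with scramble and 57.1 and 65.5 FPKM with circEsyt2 siRNA. The groups overlapped, with a log2 fold change of −0.05 (95% interval −0.38 to 0.28; limma adjusted p = 0.825). Mmp16, which encodes MT3-MMP, fell. It measured 9.72 and 7.99 FPKM with scramble and 2.76 and 3.54 FPKM with circEsyt2 siRNA, on 90 to 285 counts. The 2 groups were well apart and the log2 fold change was −1.25 (SE 0.20; limma adjusted p = 0.0175). The other membrane-type genes, Mmp15, Mmp17, Mmp24 and Mmp25, had means under 1 FPKM.

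Mmp19, an MMP that cleaves basement membrane proteins, measured 7.31 and 9.49 FPKM with scramble siRNA and 2.86 and 3.26 FPKM with circEsyt2 siRNA. Both treated libraries were below both controls, with a log2 fold change of −1.20 (SE 0.20; limma adjusted p = 0.0192). Its exons share 789 bp, 22.3% of their length, with Tmem198b on the opposite strand, a gene at a mean of 2.71 FPKM. Mmp23, which lacks the hemopexin domain of most MMPs, measured 23.8 and 27.2 FPKM against 15.6 and 18.3 FPKM. Its groups were apart, and its adjusted p of 0.0620 in limma did not pass.

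Among the inhibitors Timp2 fell and Timp1, the most abundant member of all, did not pass the test. Timp2 inhibits MMPs broadly and also takes part in the activation of proMMP2 by MMP14. It lies on chromosome 11 (GRCm38, 118301069 to 118355740, minus strand). Its FPKM was 450 and 426 with scramble and 252 and 261 with circEsyt2 siRNA, on 3175 to 6825 counts. The replicates of each group lay close together and the groups far apart, with a log2 fold change of −0.77 (SE 0.09; limma adjusted p = 0.00769). Timp2 was the 1 member still called without circEsyt2 siRNA replicate 1 and also without replicate 2, and it lost its call with eBayes without a trend and without either scramble library.

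Timp1, an inducible inhibitor secreted by many cells, measured 1066 and 1155 FPKM with scramble and 1329 and 1197 FPKM with circEsyt2 siRNA. The treated libraries were slightly above the controls, with a log2 fold change of 0.18 (95% interval −0.06 to 0.43; limma adjusted p = 0.265). Timp3 encodes the inhibitor that binds to the matrix and also blocks ADAM17 and ADAMTS aggrecanases. It measured 34.4 and 34.7 FPKM with scramble and 19.6 and 26.2 FPKM with circEsyt2 siRNA. The groups did not overlap, and the adjusted p was 0.0732 in limma and 0.0186 in voom on the recovered counts.

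The summed FPKM of the TIMP genes was 1551 and 1616 with scramble and 1601 and 1484 with circEsyt2 siRNA, so the totals overlapped. Within them, the ratio of Timp1 to Timp2 was 2.37 and 2.72 with scramble and 5.26 and 4.59 with circEsyt2 siRNA. The summed FPKM of the MMP genes was 451 and 413 against 401 and 384. The ratio of summed TIMP to summed MMP levels was 3.44 and 3.91 with scramble and 3.99 and 3.86 with circEsyt2 siRNA, values that overlap. For the ADAMTS genes the sum was 103 and 110 FPKM with scramble and 89.6 and 92.0 FPKM with circEsyt2 siRNA. These sums are dominated by a few genes: Timp1 and Timp2 carried over 97% of the TIMP sum in each library, and the leading 3 MMP genes between 61.8% and 73.8% of the MMP sum.

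**Figure D4:**
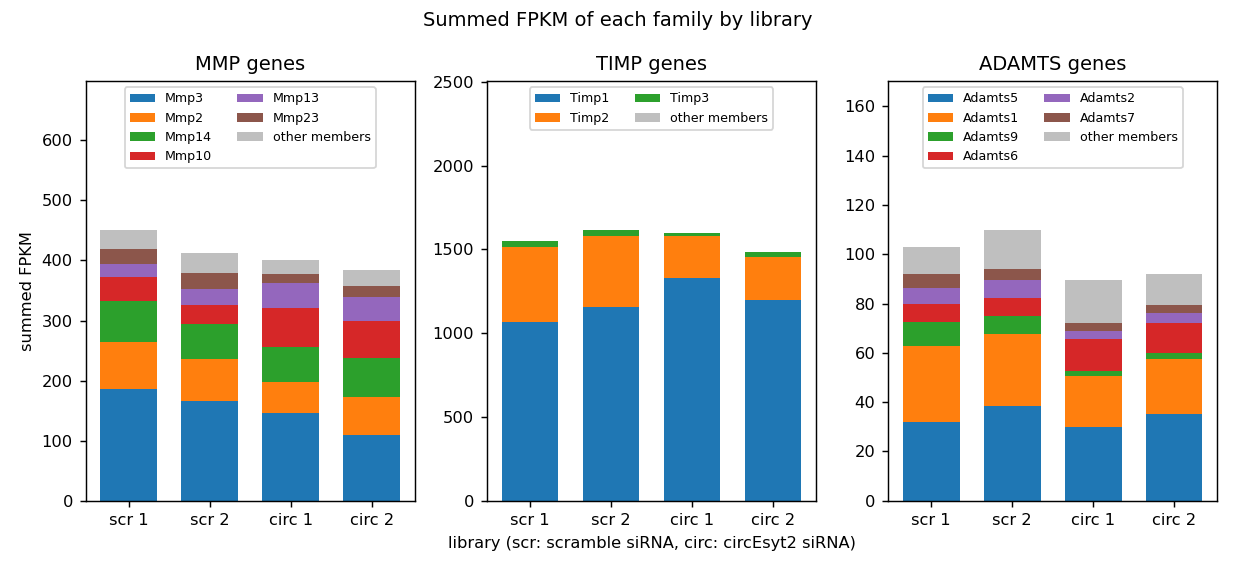
Summed FPKM of the MMP, TIMP and ADAMTS genes in each library, with the largest contributors coloured and the remaining members in grey; scr is scramble siRNA and circ circEsyt2 siRNA, and each bar is 1 library. The TIMP totals lie between 1484 and 1616 in all 4 libraries while the orange Timp2 segment is smaller in both circEsyt2 siRNA libraries.

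ADAMTS1, 4, 5 and 9 are proteoglycanases that cleave versican and aggrecan. Adamts9 had the largest fall of the 25 tested members on the log2(FPKM + 1) scale. It measured 9.48 and 7.13 FPKM with scramble and 1.91 and 2.21 FPKM with circEsyt2 siRNA, on 104 to 442 counts. The groups were far apart, with a log2 fold change of −1.60 (SE 0.22; limma adjusted p = 0.0108), a call that did not hold when circEsyt2 siRNA replicate 2 or either scramble library was left out. Adamts9 shares 1381 bp of exon, 9.18% of its length, with A730049H05Rik on the opposite strand, which had a mean of 0.983 FPKM.

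Adamts1 and Adamts5, the 2 most abundant ADAMTS genes, lie 53.1 kb apart on chromosome 16. Adamts1 measured 31.0 and 29.2 FPKM with scramble and 20.8 and 22.4 FPKM with circEsyt2 siRNA. Its groups did not overlap, and its adjusted p of 0.0665 in limma did not pass, while voom on the recovered counts gave 0.0366. Adamts5, a main aggrecanase of mouse cartilage, measured 32.0 and 38.6 FPKM with scramble and 29.9 and 35.1 FPKM with circEsyt2 siRNA. Those groups overlapped, with a log2 fold change of −0.11 (95% interval −0.49 to 0.26; limma adjusted p = 0.645). Adamts4, another aggrecanase, measured 2.15 and 2.17 FPKM with scramble and 4.09 and 2.79 FPKM with circEsyt2 siRNA, and did not pass (limma adjusted p = 0.267). Adamts20, Adamts15 and Adamts8 of the same group had means of 0.506, 0.184 and 0.0215 FPKM.

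Adamts2, Adamts3 and Adamts14 encode the procollagen N-proteinases, which remove the amino-terminal propeptide of fibrillar procollagens. Adamts2 fell. It measured 6.56 and 7.47 FPKM with scramble and 3.02 and 3.77 FPKM with circEsyt2 siRNA. The groups were apart, with a log2 fold change of −0.87 (SE 0.19; limma adjusted p = 0.0403). Adamts14 gave no such picture, at 2.83 and 4.16 FPKM against 4.19 and 1.54 FPKM, with groups that overlapped and treated libraries that lay on both sides of the controls. Adamts3 had a mean of 0.662 FPKM.

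Adamts6 and Adamts10 form a pair of related enzymes linked to fibrillin microfibrils. Adamts6 rose, from 7.24 and 7.26 FPKM with scramble to 13.1 and 12.5 FPKM with circEsyt2 siRNA. The replicates were close and the groups apart, with a log2 fold change of 0.74 (SE 0.14; limma adjusted p = 0.0282). Adamts10 measured 2.17 and 1.88 FPKM with scramble and 0.997 and 1.59 FPKM with circEsyt2 siRNA. Its values were lower in both treated libraries, and the difference did not pass the test (limma adjusted p = 0.416). Whether the 2 genes differ in their response was not tested.

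Adamts7 and Adamts12 share a mucin-like domain and cleave cartilage oligomeric matrix protein, and ADAMTS7 is known from genetic studies of coronary artery disease. Adamts7 measured 5.88 and 4.60 FPKM with scramble and 3.26 and 3.26 FPKM with circEsyt2 siRNA. Adamts12 measured 2.58 and 3.38 FPKM against 4.77 and 4.57 FPKM. The groups did not overlap for either gene, lower for Adamts7 and higher for Adamts12, and neither passed the test (limma adjusted p = 0.141 and adjusted p = 0.169).

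Other genes of the same system were read from 5 lists. Beside their counts stands the share over all 11290 genes tested, 5.47% called higher and 7.26% called lower. Among 18 tested regulators of MMPs, 3 fell and 1 rose, with a median log2 fold change of −0.09. Plau, the urokinase that makes plasmin, which activates several proMMPs, fell from 15.9 and 14.2 FPKM to 4.71 and 2.84 FPKM. Its receptor gene Plaur rose from 21.9 and 24.4 FPKM to 37.7 and 45.5 FPKM, so the enzyme and its receptor moved in opposite directions. Reck, a membrane-anchored MMP inhibitor, fell from 9.15 and 8.28 FPKM to 5.002 and 3.41 FPKM (limma adjusted p = 0.0439), and Thbs1, thrombospondin-1, fell by 0.47 on the log2 scale. Both were named after their values were seen.

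Of 12 tested other metzincin proteases, the wider zinc protease group to which MMPs and ADAMTS enzymes belong, 2 rose and 2 fell, with a median of −0.15. Pappa, which encodes a protease of IGF binding proteins, rose from 21.9 and 16.8 FPKM to 45.4 and 55.5 FPKM (limma adjusted p = 0.0104). Adam12 rose by 0.59 on the log2 scale and was named after its values were seen. Adam23, a family member without protease activity, fell from 8.01 and 8.27 FPKM to 2.85 and 2.32 FPKM. Tll1, a tolloid protease that trims procollagens, fell from 12.3 and 14.0 FPKM to 5.55 and 6.10 FPKM. None of the 3 tested ADAMTS-like genes passed. The 2 of them with the smallest p were Adamtsl4, at 3.03 and 4.69 against 0.949 and 2.44 FPKM, and Adamtsl3, at 0.924 and 0.784 against 1.82 and 1.20 FPKM.

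Among 18 tested matrix substrates 4 fell and 1 rose, with a median of −0.21. Vcan, the gene of versican, a substrate of ADAMTS1, 4, 5 and 9, fell from 123 and 98.7 FPKM to 38.1 and 35.3 FPKM (limma adjusted p = 0.00453). Fbn1, the fibrillin-1 gene, fell from 103 and 84.9 FPKM to 33.7 and 40.1 FPKM (limma adjusted p = 0.00663). Spp1, osteopontin, an MMP substrate, fell from 1102 and 1075 FPKM to 623 and 636 FPKM. Lama4, which encodes a laminin chain, had a log2 fold change of −0.92 and was lower, and Fn1, the fibronectin gene, rose by 0.89, both named after their values were seen.

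AP-1 and ETS transcription factors, which are known to act on MMP promoters, had 2 of 15 tested members higher and 1 lower, with a median of 0.17. Atf3, a stress-induced factor that can pair with Jun proteins, rose from 2.21 and 4.74 FPKM to 50.3 and 59.7 FPKM. Ets2 rose from 15.5 and 13.6 FPKM to 41.0 and 52.1 FPKM (limma adjusted p = 0.00508), and Elk3 fell by 0.57 on the log2 scale and was named after its values were seen. No Fos or Jun family gene of the list passed the test. All calls in these lists were lost without either scramble library, and without circEsyt2 siRNA replicate 2 so were those of Plaur, Reck, Thbs1, Adam12, Adam23, Tll1, Pappa, Fn1, Lama4 and Elk3. Without circEsyt2 siRNA replicate 1 those of Thbs1, Adam12, Lama4 and Elk3 were lost. With eBayes without a trend Reck, Plaur, Thbs1, Adam12, Fn1, Lama4, Spp1 and Elk3 were not called, nor were Reck, Thbs1, Adam12 and Elk3 with the replicate block or with no filter on low values.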

How the data were processed

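RNA from 4 libraries of mouse vascular smooth muscle cells was sequenced in paired reads of 150 bp, per the labels. Values deposited by the authors are FPKM, 1 file per library. The submitters' processing notes name Trimmomatic, HISAT2, featureCounts, GRCm38 and mm10. Not given in the sources used here are versions, settings, strand use and the annotation.

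Library totals were solved from the FPKM steps with GENCODE M21 exon lengths (GRCm38), which gave whole counts within 0.001 for 96.4% of 20745 genes above 0 and for 44 of 45 members. The count of Adamts19 was rounded. Coordinates are 1-based from M21.

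The test was limma 3.58.1 in R 4.3.3 (eBayes, trend) of log2(FPKM + 1) values, run on the 11290 genes averaging 1 FPKM or more, two-sided, with Benjamini-Hochberg adjustment over all of them at 0.05. The steps were tested on simulated data, 2 libraries against 2. Of 100 genes changed by 1 on the log2 scale 49 were called, and of 100 changed by 2, 97 were called. Of 11084 unchanged genes 9 were called. The simulated counts were independent, with the same added spread for every gene. Far fewer genes were changed than were called in the real data, and none of the lowest tested genes was changed. No simulated library stood apart as circEsyt2 siRNA replicate 1 did. For these reasons the shares cannot be carried over to the real data. Chi-square divided by its degrees of freedom was 4.06 between the scramble libraries and 11.2 between the circEsyt2 siRNA libraries, for counts that cannot be taken as independent. Alternatives covered the pseudocount, filter, scaling, variance model, voom on recovered counts, the replicate block and leaving out each library.

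Members and lists were chosen with earlier results of these data known. All members at a mean of at least 1 FPKM are named, and in each other list the 2 genes with the smallest p and called genes that changed by 1 or more on the log2 scale.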

Additional observations from a re-analysis of the deposited data

How the results depend on the processing

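The count of members called was 8 in the reported test, 8 with a pseudocount of 0.1 or median-ratio scaling, 9 with quantile normalization, 11 with voom on recovered counts and 6 with no filter on low values. With eBayes without a trend it was 4, with 577 of all genes and 8 genes of the other lists (1437 and 16 in the reported test), and the cause was not tested. With the replicate block it was 6, with 1008 of all genes and 12 genes of the other lists. Whether the replicate numbers pair the libraries is not known. The deviations of same-numbered libraries from their group means correlated at −0.051 across genes. With 2 libraries per group and circEsyt2 siRNA replicate 1 standing apart, this correlation cannot settle the question. Leaving out 1 library gave 0 to 4 members, 0 to 1027 of all genes and 0 to 14 genes of the other lists. The spread then rests on 3 libraries, the lone one being assumed to vary like the other group. Without scramble replicate 1 or 2, where limma called 0, 1959 and 2231 of all genes and 18 and 21 genes of the other lists had an unadjusted p under 0.05. Expressed members numbered 25 to 26 when 1 library was left out. Of 274 fold changes of single members under an alternative, 226 kept direction and call. For the 8 called members alone, 51 of 88 kept the call and 37 lost it. The 5 that reversed belong to genes that were not called. Mmp14 reversed when scramble replicate 1 (0.062) or circEsyt2 siRNA replicate 1 (0.045) was left out, over a range from −0.16 to 0.062. Adamts5 did so for scramble replicate 2 (−0.25 to 0.016), Adamts14 for circEsyt2 siRNA replicate 2 (−0.81 to 0.22) and Mmp9 for scramble replicate 1 (−0.46 to 0.11). The 20 members under a mean of 1 FPKM had 1 to 68 counts in all, and with no filter on low values none of them was called.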
